A study of Danio rerio with 16 samples.

Results

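Transcription factors of the forkhead (Fox), Sox, Krüppel-like (Klf), Gata, Egr, Etv, T-box (Tbx) and Hnf families were measured in the fast muscle of adult zebrafish after exercise training. They were taken as all genes whose symbol starts with one of these family names, leaving out the foxo genes, gata1 and klf1, among the probes named through a RefSeq accession. This gave 73 genes with 128 probes, of 5952 named genes and 9104 named probes in all. One of the 73, tbxas1, carries a T-box prefix by spelling only: it is thromboxane A synthase, an enzyme, so 72 are transcription factors and tbxas1 is described apart.

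Training took 5 days per week for 4 weeks, 20 experimental days in all. On these days the water ran at 0.4 m/s for 6 hours in the tunnel of the exercised fish. It ran at 0.1 m/s in that of the non-exercised fish. All were wild-type adult zebrafish bought from a pet shop, and dorsal epaxial fast muscle of 8 exercised and 8 non-exercised individual fish was hybridised to 16 single-colour arrays, with 1 array per fish. Each group was kept in a single swim tunnel, and exercised fish 1 to 4 and 5 to 8 lay on slides 3 and 4, scanned on 1 day, whereas non-exercised fish 1 to 4 and 5 to 8 lay on slides 1 and 2, scanned on another. Tunnel, slide, scan day and training therefore cannot be told apart. The question was which of these regulators differ in muscle after training. Because each sample was a piece of whole muscle, fewer cells of a type and less RNA per cell cannot be told apart.

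As background, these families bind DNA through different folds: Fox proteins through a winged helix, Sox proteins through a high mobility group box, Klf, Egr and Gata proteins through zinc fingers, Etv proteins through an ETS domain and Tbx proteins through a T-box. Most are known from embryos, where they set cell fates in endoderm, neural crest, blood and mesoderm. In adult muscle, Klf and Egr genes are better known as genes that respond to blood flow, hormones or mechanical stimulation, and several family members mark the vessels, nerves and connective tissue that lie between fibres.

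A gene was called detected when a probe was well above background, by the flag of the scanner software, on 8 or more of the 16 arrays. Values are log2 signals relative to the 75th percentile of the probes of the same array, for the brightest probe of each gene, and compare fish for 1 probe, not genes with each other. Of the 73 genes, 20 (27.4%) were detected and 53 were dim, against 60.55% detected among all named genes. For 33 genes (45.21%) no array showed the brightest probe well above background, against 16.3% of all named genes. The Klf family was mostly detected (6 of 7 genes), as were both Etv genes, whereas 4 of 27 Fox, 3 of 14 Sox, 3 of 10 Tbx (tbxas1 among them), 1 of 6 Gata, 1 of 2 Egr and 0 of 5 Hnf genes were. Of the detected genes, 7 were well above background on all 16 arrays: egr2b, klf2a, klf2b, klf6a, klf15, sox4b and tbx2b. Just inside the threshold stood sox11b with 9 arrays and tbxas1 with 10, and just outside it foxa1, sox9a and tbx18 with 5 each.

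By the brightest probe, no detected transcription factor passed the test between exercised and non-exercised fish in the main fit. For 2 detected genes, etv4 and klf3, a probe other than the brightest was called higher, as given below. Among all 73 genes 4 were called higher in exercised fish (limma, Benjamini-Hochberg adjusted p under 0.05 over all probes) and 0 lower. The calls were foxa1, sox2 and foxp1b, all dim, and tbxas1. Of all 5952 named genes, 3.21% were called higher and 3.01% lower. Of the detected named genes 2.69% were called higher and 4.77% lower, and of the dim ones 4.00% and 0.298%. At an unadjusted limma p under 0.05, 3 of the 20 detected genes were higher and 0 lower, and 5 of the 53 dim genes were higher and 0 lower. These counts include the 4 called genes. The share of all named genes at this threshold was not counted, so they are not read as a result about these families. The methods' t-test with the same adjustment called 4 genes higher and 0 lower as well.

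**Figure D1:**
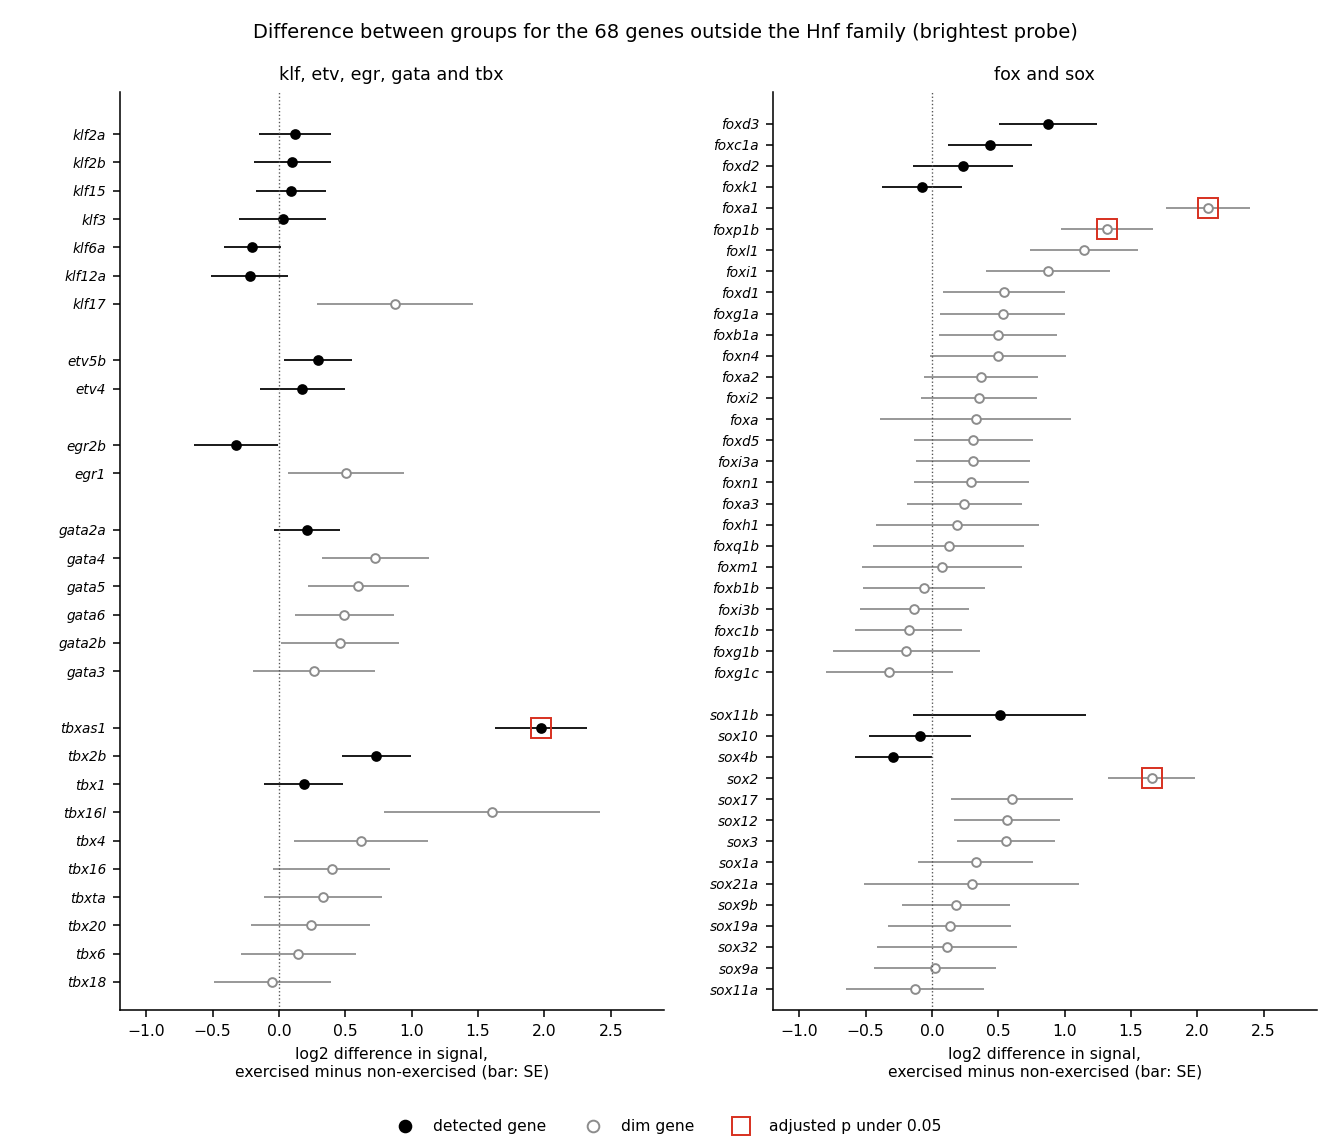
Difference in log2 signal between exercised and non-exercised fish (x axis, exercised minus non-exercised, bar: standard error of the limma fit) for the brightest probe of each of the 68 genes outside the Hnf family, by family, with detected genes as filled points and dim genes as open points. Red squares mark the 4 genes with an adjusted p under 0.05. Of these tbxas1 alone was detected, with 7 exercised and 3 non-exercised fish well above background.

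The Klf genes, zinc finger factors that bind GC-rich and CACCC elements, were detected in 6 of 7 cases. None of the 6 was called by its brightest probe. klf2a and klf2b, the zebrafish copies of a factor that endothelium expresses under blood flow, were well above background in every fish. klf2a had a lowest, median and highest log2 signal of 1.51, 1.77 and 2.37 in exercised fish and of 0.58, 1.74 and 2.35 in non-exercised fish. The groups overlapped over nearly the whole range, and the difference was 0.12 ± 0.27 (SE, n = 8 each, adjusted p = 0.806). klf2b had 0.19, 0.70 and 1.88 in exercised fish against 0.00, 0.63 and 1.32 in non-exercised fish, a difference of 0.10 ± 0.29 (adjusted p = 0.850). The direction of neither was firm: exercised fish of slide 3 were 0.17 below the non-exercised mean for klf2a and 0.26 below it for klf2b, and those of slide 4 were 0.41 and 0.46 above.

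klf6a, a member of the family induced early after injury in mammals, had 1.26, 2.03 and 2.28 in exercised fish and 1.84, 2.08 and 2.55 in non-exercised fish. Only 1 exercised fish stood above the non-exercised mean, yet the difference of -0.20 ± 0.21 did not pass the test (adjusted p = 0.650). klf12a, which in mammals acts mainly as a repressor, had -2.28, -1.03 and -0.43 in exercised fish and -1.44, -0.92 and -0.35 in non-exercised fish, with a difference of -0.22 ± 0.29 (adjusted p = 0.688). klf15, known in mouse muscle as a target of glucocorticoids that acts on amino acid and lipid use, differed by 0.09 ± 0.26 (adjusted p = 0.853). The brightest probe of klf3 differed by 0.03 ± 0.33 (adjusted p = 0.966). The standard errors of the 6 differences lay between 0.21 and 0.33, and none of the differences exceeded its own standard error in size. klf17, the dim member, is an erythroid and hatching gland factor in zebrafish, and its probe was well above background on 1 array.

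**Figure D2:**
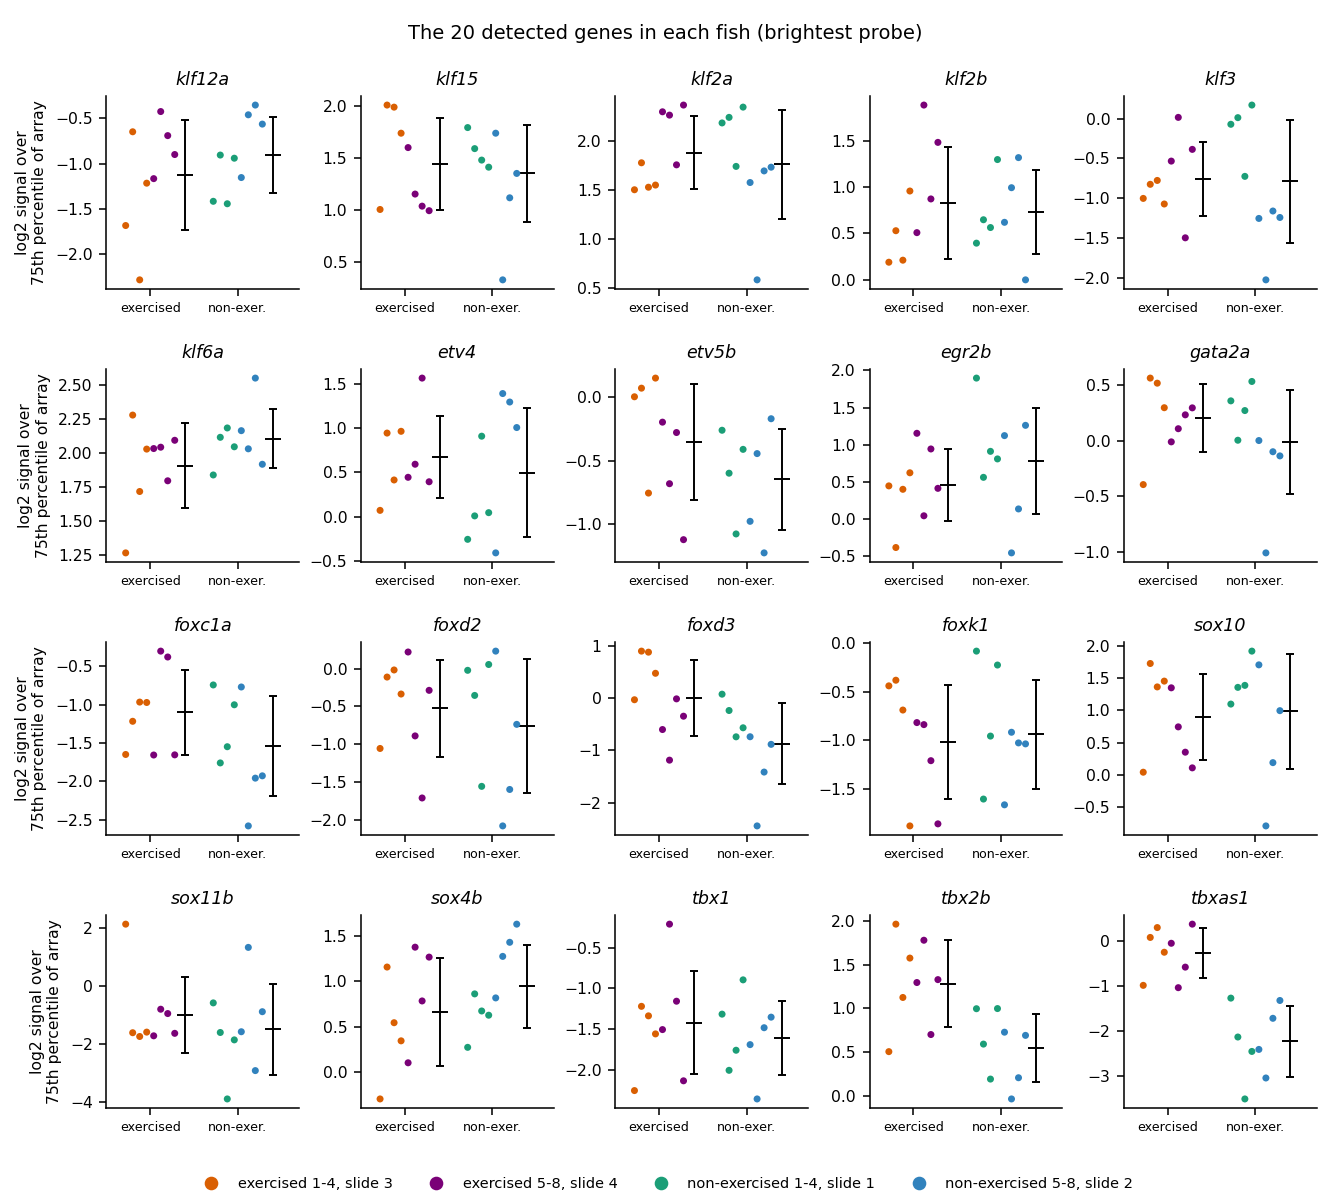
Log2 signal over the 75th percentile of the array (y axis) of the 20 detected genes in each fish, with exercised fish at the left of each panel and non-exercised fish at the right, coloured by slide, and the mean ± SD of each group beside the points. The groups overlap in every panel but that of tbxas1, whose 8 exercised fish lie above all 8 non-exercised fish, and 6 of 8 exercised fish lie above all non-exercised fish for tbx2b.

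etv4 and etv5b, ETS factors of the Pea3 group that are targets of fibroblast growth factor signalling in zebrafish embryos, were covered by 13 and 12 probes. The brightest probe of etv4 had 0.07, 0.52 and 1.57 in exercised fish and -0.41, 0.48 and 1.39 in non-exercised fish, a difference of 0.18 ± 0.32 (adjusted p = 0.753). That of etv5b had -1.12, -0.24 and 0.15 in exercised fish and -1.22, -0.52 and -0.17 in non-exercised fish, a difference of 0.29 ± 0.26 (adjusted p = 0.597). Neither passed the test, although 3 exercised fish exceeded every non-exercised fish for etv5b. Across the probes, the difference ran from -0.37 to 1.59 for etv4, with 10 of 13 above 0, and from -0.06 to 1.22 for etv5b, with 11 of 12 above 0.

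A single etv4 probe (LOL03912) was called, at 1.59 ± 0.42 (adjusted p = 0.0310), with -1.61, -0.40 and 2.38 in exercised fish and -2.42, -1.65 and -1.32 in non-exercised fish. Exercised fish 8 held its highest value, 2.38, and the next highest exercised fish had 0.53. Of the 8 exercised fish, 7 lay above every non-exercised fish. The probe was well above background in 7 exercised and 5 non-exercised fish. Exercised fish of slide 3 were 1.26 above the non-exercised mean and those of slide 4 were 1.92 above it. Over the negative control spots its log2 signal was 4.19 and 3.06 on slides 3 and 4, against 2.245 and 2.60 on slides 1 and 2. On that scale the groups overlapped, with an exercised minimum of 2.31 and a non-exercised maximum of 3.38. The other 12 etv4 probes and all 12 etv5b probes were not called, the lowest adjusted p among those of etv5b being 0.0648.

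The Egr genes are zinc finger factors of the immediate early class, and egr2b is also known for hindbrain segments and for myelinating Schwann cells. egr2b was well above background in all fish, with -0.38, 0.43 and 1.16 in exercised fish and -0.45, 0.86 and 1.90 in non-exercised fish. The difference was -0.33 ± 0.32 (adjusted p = 0.632), the most negative of the detected genes, with 2 of 8 exercised fish above the non-exercised mean. egr1, the family member most used as a marker of acute stimulation, was dim, with 0 arrays flagged well above background. Other immediate early genes (fos, jun, atf3, ier5, nr4a, btg2 and dusp1 genes, 10 measured and all detected) gave 0 calls in either direction, with a median difference of 0.14. Of the partners of Egr factors, srfb and elk4 were measured and neither was called. Of 8 other ETS genes, 6 were detected and 0 called.

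gata2a, a zinc finger factor of endothelium and early blood in zebrafish, was the detected Gata gene. It had -0.39, 0.27 and 0.57 in exercised fish and -1.01, 0.00 and 0.54 in non-exercised fish, a difference of 0.21 ± 0.25 (adjusted p = 0.668). The 5 other Gata genes, gata2b and gata3 of blood and nervous system and gata4, gata5 and gata6 of heart and gut, had 0 arrays flagged well above background. Of 7 measured genes that work with Gata factors in blood and endothelium (ldb, lmo2, runx1 and tal1 genes), 2 were called higher, ldb1b and ldb2b, both dim, and 0 lower. The Hnf genes, which serve liver, kidney and gut, were dim, and of 9 measured liver markers only cp was detected.

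Among the Fox genes, 4 of 27 were detected, and none of them was called. foxd3, a factor of neural crest and its glial descendants, had -1.18, -0.02 and 0.89 in exercised fish and -2.44, -0.74 and 0.07 in non-exercised fish. All but 1 of the exercised fish lay above the non-exercised mean, and the difference of 0.87 ± 0.37 was the highest of the detected transcription factors (adjusted p = 0.185 in limma). Exercised fish of slide 3 were 1.42 above the non-exercised mean and those of slide 4 were 0.33 above it. The second foxd3 probe, well above background in 4 exercised fish, all of slide 3, and in 1 non-exercised fish, differed by 1.08 ± 0.48 (adjusted p = 0.214).

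foxc1a, which in zebrafish acts in somites and vessels, had -1.66, -1.10 and -0.30 in exercised fish and -2.58, -1.65 and -0.74 in non-exercised fish. It differed by 0.44 ± 0.32 (adjusted p = 0.514). Its paralogue foxc1b was flagged well above background in 0 of 16 fish and was not called (adjusted p = 0.808). foxd2 differed by 0.23 ± 0.38 and foxk1, a factor of muscle progenitors in mouse, by -0.07 ± 0.30, with adjusted p-values of 0.729 and 0.896. The left-out foxo genes, which control atrophy genes in mammalian muscle, had a single measured member, foxo3b, detected and not called (0.91 ± 0.34, adjusted p = 0.128).

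sox10, sox4b and sox11b were the detected Sox genes, and none was called. sox10, a factor of neural crest and of Schwann cells, differed by -0.09 ± 0.38 (adjusted p = 0.900). sox4b, which belongs with sox11b to the SoxC group of progenitor cells, had -0.30, 0.66 and 1.38 in exercised fish and 0.27, 0.84 and 1.63 in non-exercised fish, a difference of -0.29 ± 0.29 (adjusted p = 0.638). sox11b had -1.75, -1.61 and 2.13 in exercised fish and -3.91, -1.60 and 1.32 in non-exercised fish. Its medians were nearly level, and the difference of 0.51 ± 0.65 (adjusted p = 0.685) had the largest standard error of the detected genes. Exercised fish 1 alone held the exercised maximum, 2.13, the next highest having -0.81. Schwann cell markers, which share their cells with sox10, foxd3 and egr2b, were detected for 4 of 6 genes and 0 were called. Their summed signal ran from 25.8 to 61.5 times the 75th percentile of the array in exercised fish and from 13.4 to 79.0 times in non-exercised fish, with plp1a and gfap dim, and its part in these 3 genes was not tested.

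tbx2b, a T-box repressor of heart, eye and fin in zebrafish, came closest to the threshold among detected transcription factors by the brightest probe. It was well above background in all 16 fish, with 0.51, 1.31 and 1.96 in exercised fish and -0.03, 0.64 and 1.00 in non-exercised fish. Of the 8 exercised fish, 6 lay above every non-exercised fish. The difference was 0.73 ± 0.26 (adjusted p = 0.106 in limma), and it was alike on both exercised slides, at 0.74 for slide 3 and 0.73 for slide 4. Whether tbx2b was called depended on the processing. The limma adjusted p was 0.0395 after quantile normalization, 0.00863 after cyclic loess and 0.0257 with array weights. It was 0.0421 and 0.0349 when probes were filtered on 8 or all 16 arrays. tbx2b was not called after a median shift (0.369), with normexp correction (0.105) or without background correction (0.0652). Nor was it called with the slide as a random block (0.773), with a replicate block (0.138) or by the methods' t-test (0.0636). Of the 16 fits that left out 1 fish, 1 called it, that without exercised fish 1 (0.0426), and the adjusted p reached 0.207 in the others. The second tbx2b probe was well above background in 1 exercised fish and in no non-exercised fish. tbx1, a pharyngeal and head muscle factor, differed by 0.19 ± 0.30 (adjusted p = 0.727).

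tbxas1, the enzyme that makes thromboxane from prostaglandin in platelets and macrophages of mammals, was the detected gene that was called. It had -1.03, -0.14 and 0.39 in exercised fish and -3.52, -2.27 and -1.27 in non-exercised fish, and the groups did not overlap. Its probe was well above background in 7 exercised and in 3 non-exercised fish. The difference was 1.97 ± 0.35 (adjusted p = 0.00216 in limma), with exercised fish of slide 3 at 2.03 and those of slide 4 at 1.92 above the non-exercised mean. Over the negative control spots of the same array, its log2 signal was 4.451 on slide 3 and 2.549 on slide 4. It was 1.645 and 2.188 on slides 1 and 2. On that scale the groups overlapped, with an exercised minimum of 2.275 and a non-exercised maximum of 3.18. With normexp background correction it was 1.1 (adjusted p = 0.0305) and without correction 1.07 (adjusted p = 0.0196), and the call was lost with the slide as a random block (0.204). Red cell markers also stood higher, with a median difference of 1.34 over the 10 measured genes, of which 7 were detected. A sum was taken over the 7 genes without an outlier spot on any array. It was 12.2 to 96.9 times the 75th percentile in exercised fish and 2.71 to 18.2 times in non-exercised fish. klf1 alone of that list was called, higher, and blf and gata1a were dim as klf1 was. Their part in the difference of tbxas1 was not tested.

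foxa1, sox2 and foxp1b were the transcription factors called by their brightest probe, and all 3 were dim. The brightest probe was picked by its mean over exercised and non-exercised fish together, so exercised values helped to choose the tested probe. foxa1, a pioneer factor that opens chromatin in endoderm, was well above background in 5 exercised fish, all 4 of slide 3 and fish 7 of slide 4, and in 0 non-exercised fish. Its log2 signal was -3.08, -1.95 and -1.05 in exercised fish and -4.98, -3.92 and -3.57 in non-exercised fish, with no overlap on this scale. It was called higher in exercised fish (adjusted p = 0.000677), and no fold is given because no non-exercised fish was well above background. The second foxa1 probe, with 0 arrays well above background, was not called (adjusted p = 0.670). In non-exercised fish the called and the second foxa1 probe were nearly level, with means of -4.075 and -4.145.

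The called probe (LOLG521) of sox2, a factor of neural and other progenitor cells, was well above background in 1 exercised fish, number 4, and in 0 non-exercised fish. It had -3.11, -2.17 and -1.14 in exercised fish and -4.71, -3.80 and -3.28 in non-exercised fish, again with no overlap on this scale (adjusted p = 0.00542). The share of all named genes without overlap was not counted. No fold is given for sox2 either, as no non-exercised fish was well above background. The 3 other sox2 probes were not called, with adjusted p-values from 0.682 to 0.729. In non-exercised fish too the called sox2 probe was the brightest, with a mean of -3.896 against -4.231 to -4.168. The called probe of foxp1b, a forkhead repressor, was well above background in 1 exercised fish, number 2, and in 0 non-exercised fish. It had -3.46, -2.68 and -1.84 in exercised fish and -4.91, -4.17 and -2.83 in non-exercised fish, which overlapped (adjusted p = 0.0288). By the mean of non-exercised fish this probe was the dimmest of the gene, at -4.051 against -3.201 and -3.883. It ranked first only through the exercised fish, at -2.729 against -3.595 and -3.353, so its call leans on how the probe was chosen. The 2 other foxp1b probes, with adjusted p-values of 0.376 and 0.732, were not called. The second of the gene in brightness went the other way, at -0.39, and was well above background in 0 exercised and 2 non-exercised fish. foxp1b kept its call in 8 of the 16 fits that left out 1 fish, with adjusted p between 0.0135 and 0.0669, and lost it without exercised fish 2, 3, 4 or 8 or non-exercised fish 1, 3, 6 or 7, whereas foxa1 and sox2 kept theirs in all 16. After quantile normalization (limma adjusted p = 0.171) and cyclic loess (0.0656) foxp1b was not called, while foxa1 and sox2 were. With the probes of each gene averaged, foxa1 kept its call (0.0377), and sox2 and foxp1b lost theirs.

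How far these 3 probes rose above the negative control spots of the same array differed between the exercised slides. foxa1 stood 2.46 above them on the log2 scale on slide 3 and 1.07 on slide 4, against 0.07 on slide 1 and 0.08 on slide 2. sox2 stood 2.30 above them on slide 3 and 0.74 on slide 4, against 0.33 and 0.18 on slides 1 and 2. foxp1b stood 2.01 above them on slide 3 but 0.06 on slide 4, against 0.19 and 0.01 on slides 1 and 2. The exercised fish of slide 4 thus held foxp1b signals level with the negative controls, which were themselves higher there. Over the negative controls, the groups overlapped for foxa1 and sox2 as well. The exercised minimum was -0.04 and the non-exercised maximum 0.59 for foxa1, and 0.34 and 0.38 for sox2. None of the 3 was called with normexp correction (adjusted p of 0.302 for foxa1, 0.273 for sox2 and 0.790 for foxp1b), without background correction (0.237, 0.209 and 0.872) or with the slide as a random block (0.0956, 0.282 and 0.539).

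**Figure D3:**
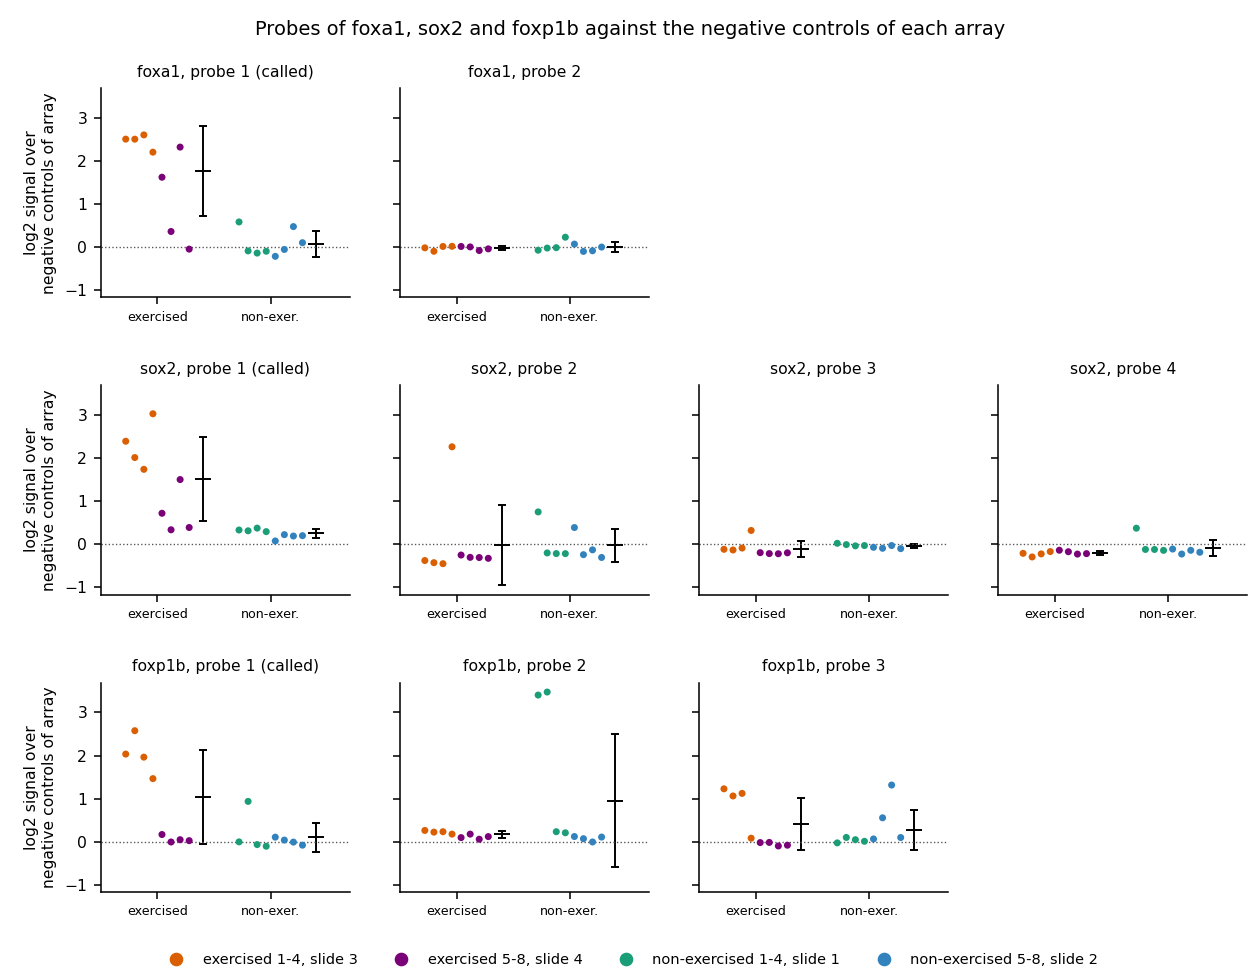
Log2 signal of each probe of foxa1, sox2 and foxp1b over the negative control spots of the same array (y axis), per fish, with exercised fish at the left, non-exercised fish at the right, colours for slides and the mean ± SD beside the points. The called probe of foxp1b lies near 0 in exercised fish 5 to 8, at 0.06 on average, and the other probes of the 3 genes stay near 0 in most fish of both groups.

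The 53 dim genes moved with the negative control spots of the arrays. Their median log2 signal averaged -4.48 on slide 3 and -2.76 on slide 4 in exercised fish, and -3.89 on slide 1 and -4.18 on slide 2 in non-exercised fish. The negative control spots stood at -4.66 and -2.86 on the exercised slides and at -3.99 and -4.31 on the non-exercised slides. Relative to the non-exercised mean, 39 of the 53 (73.58%) were lower on slide 3 and 51 (96.23%) were higher on slide 4, with median differences of -0.45 and 1.24. Among all dim named genes these shares were 67.59% and 88.54%, and the medians -0.43 and 1.03. By family, the median difference of the dim genes was 0.31 for 23 Fox, 0.30 for 11 Sox, 0.33 for 7 Tbx and 0.49 for 5 Gata genes, against 0.36 over all dim named genes. Outside the calls, the dim genes seen on most arrays were tbx18 (3 exercised and 2 non-exercised fish well above background, adjusted p = 0.955) and sox9a (2 and 3, adjusted p = 0.980), factors of connective tissue and cartilage. foxl1 was well above background in 3 exercised and 0 non-exercised fish, without a call (adjusted p = 0.104). The share of all probes well above background averaged 48.3% on slide 3 and 30.1% on slide 4, and 41.2% and 42.9% on slides 1 and 2. Set against all non-exercised fish, the exercised fish of slide 4 alone gave 31 calls among the 73 genes and those of slide 3 alone gave 3 (foxa1, sox2 and tbxas1), all higher. Over all probes, the same fits called 14528 of 43803 higher for slide 4 and 1315 of 43626 higher for slide 3.

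**Figure D4:**
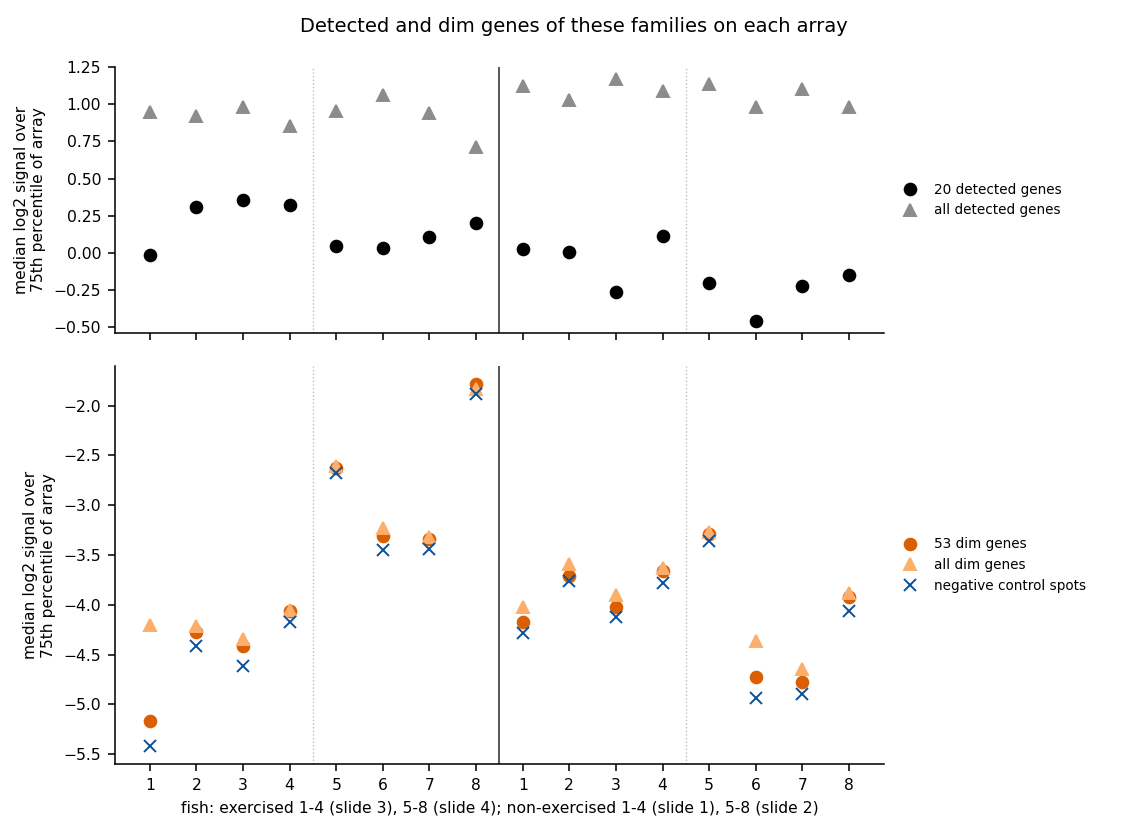
Median log2 signal over the 75th percentile of the array (y axes) on each array (x axis, exercised fish 1 to 8, then non-exercised fish 1 to 8), for the detected genes of these families and all detected named genes (top), and for the dim genes, all dim named genes and the negative control spots (bottom). The dim genes move with the negative controls, highest on slide 4 at an average of -2.76, while the detected genes stay between -0.46 and 0.36.

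The detected genes moved less between slides, with average medians of 0.24 and 0.10 on the exercised slides 3 and 4 and of -0.03 and -0.26 on the non-exercised slides 1 and 2. Of the 20 detected genes, 14 (70%) had a difference above 0, with a median of 0.15, against 40.07% and -0.15 among all detected named genes. The number of these 20 genes above 0 depended on the scaling. All detected named genes were not counted under the other scalings, so the contrast with them was not followed. A median shift moves all genes of an array alike, so it does not bear on the gap between the medians, but it can change both shares above 0. After a median shift 6 of the 20 lay above 0 and their median was -0.10, whereas quantile normalization left 12 above 0, with a median of 0.17, and cyclic loess left 15, with a median of 0.24. On both exercised slides 10 of the 20 were above the non-exercised mean, 3 (egr2b, klf6a and sox4b) were below it on both, and 7 lay above it on 1 slide and below it on the other.

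Probes of the same gene gave a further view of the spread. Of the 73 genes 21 had several probes, and in 16 of the 21 every probe differed in the same direction, always upward. Over all probes of the arrays the median difference was also above 0, at 0.26. The share among all named genes with several probes was not counted, so the 16 are not read as a result about these families. The 5 genes with a called probe were etv4, foxa1, foxp1b, klf3 and sox2, and in each of them exactly 1 probe was called. For klf3 it was the dimmest of 4 (LOLG687), well above background in 2 exercised and 0 non-exercised fish, 1 of the 2 being an outlier spot that was left out (7 exercised and 8 non-exercised fish, adjusted p = 0.0222). It stood 1.99 above the negative controls on slide 3 and 0.10 on slide 4, against 0.16 and 0.12 on slides 1 and 2. The 3 brighter klf3 probes differed by 0.03 to 0.37 and were not called. Both klf2b probes were detected and differed by 0.09 and 0.10.

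**Figure D5:**
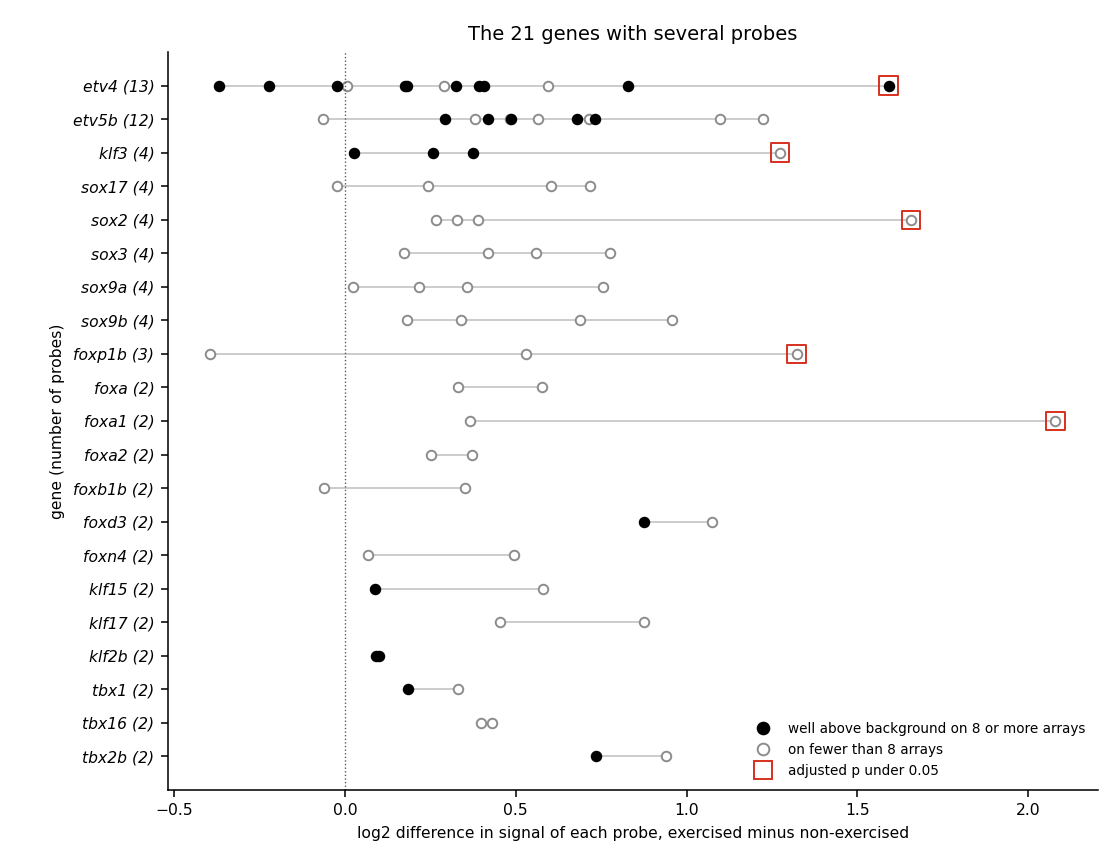
Difference in log2 signal, exercised minus non-exercised (x axis), of every probe of the 21 genes with several probes (y axis, number of probes in brackets), filled where the probe was well above background on 8 or more arrays. The called probe, in a red square, is the highest of its gene in all 5 genes that have one.

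Of the fast muscle markers, 11 of 12 measured genes were detected. The exception was tnnt3a, which was called lower with no exercised and 7 non-exercised fish well above background. Detection did not single out fast muscle, as 8 of 8 skin, 8 of 8 fibroblast and 5 of 6 slow muscle markers were detected too. Endothelial markers, which share their cells with klf2a, klf2b and gata2a, were detected for 2 of 4 genes (cldn5b and tek, with cdh5 and flt4 dim) and 0 were called. Their summed signal was 4.70 to 15.5 times the 75th percentile in exercised fish and 3.96 to 17.6 times in non-exercised fish. Of the other lists, 2 of 8 fibroblast markers (col1a1a and col1a2), 1 of 8 skin markers (krt15) and 1 of 9 liver markers (apoa1a, dim) were called higher, and 0 of 6 slow muscle markers were called. Of 9 measured relatives of the Klf family (sp genes and klf1), sp1 was detected and klf1 was called higher, and 0 were called lower.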

How the data were processed

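RNA of dorsal fast muscle was labelled with Cy3 by the authors, and the deposited spot intensities come from Agilent Feature Extraction 10.7.3.1, per the submitters' processing notes: a processed signal, the median spot signal and the local background, with flags for outliers and for signal well above background. The table of selected probes that the authors deposited holds their fold changes, p-values and log2 values per array and was not used. Here, processed signals were log2 transformed and shifted by the 75th percentile of each array, taken over its 43803 non-control probes. Spots flagged as outliers were left out (49 to 892 per array), and 0 were saturated. The share of probes well above background ran from 21.1% to 54.0% per array, which, with 16 arrays, limits the precision for dim probes.

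Probes were named through RefSeq accessions (9104 probes, 5952 symbols), and a gene was counted by its probe with the highest mean signal over both groups together. Exercised and non-exercised fish, 8 each, were compared with lmFit and eBayes of limma 3.58.1 (with R 4.3.3, statmod 1.5.0 and version 1.17.8 of data.table). P-values were adjusted by Benjamini-Hochberg across the 43803 probes, with a threshold of 0.05. The fit was tested on simulated data. Figures used Python 3.11.15, pandas 2.3.3 and matplotlib 3.10.9. Alternatives were normexp (offset 50) or no background correction of the median spot signal, quantile, median and cyclic loess scaling, filters on dim probes, the methods' t-test, array weights, the slide as a random block, a replicate block, each fish left out, each exercised slide alone and averaging the probes of each gene. The genes named were those called, the 2 detected genes of each family with the lowest p, the 3 detected genes with the most positive and the 3 with the most negative differences, and foxa1, klf2a, klf2b, foxc1a and foxc1b. Other genes are given to complete a count or family, or beside a result, and were chosen after their values were seen. One result is not reported here. The members and lists were chosen with earlier results of these data known.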

Additional observations from a re-analysis of the deposited data

Results flagged for a closer look

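In 3 groups of 8 fish, 1 fish stood far from the others among the named genes, by the gap to its nearest neighbour over the range of the group. Chance gives such a gap in about 1 in 20 groups. Both groups of every named gene were looked at, so some such gaps come by chance alone. gata2a had its lowest non-exercised value, -1.01, in fish 6, the next being -0.14. klf2a had its lowest non-exercised value, 0.58, in the same fish, the next being 1.58. sox11b had its highest exercised value, 2.13, in fish 1, the next being -0.81.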

How the results depend on the processing

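The count of genes called higher in exercised fish, 4, was 1 with normexp correction, 1 without background correction, 2 and 1 when probes were filtered on 8 or all 16 arrays, 7 with array weights, 0 with the slide as a random block, 31 with the exercised fish of slide 4 alone and 2 with the probes of each gene averaged. For detected genes it was 2 after quantile normalization, cyclic loess, the filter on 8 arrays and array weights, and 0 with the slide block, against 1. Leaving out 1 fish gave 3 to 6 genes, and 1 to 2 detected genes. No alternative called one of these genes lower. The filters on 8 and on all 16 arrays left only 20 and 7 of the 73 genes to test. Neither filter kept the probes of foxa1, sox2 or foxp1b. That on all 16 arrays also dropped tbxas1, and its call was tbx2b. Among all probes, the main fit called 2005 of 43803 higher. Normexp correction gave 489, no background correction 710, array weights 3132, the slide block 82 and slide 4 alone 14528. The filters on 8 and 16 arrays gave 1091 of 17516 and 675 of 7948, and averaging probes gave 1883 of 40651. Over all probes the median difference of 0.26 was 0.01 after quantile normalization or a median shift. Signs turned after a median shift for etv4 (-0.0752), gata2a (-0.0398), klf2a (-0.13) and klf2b (-0.15), with array weights for klf2a (-0.20), with slide 3 alone for klf2a (-0.17) and klf2b (-0.26), and with slide 4 alone for foxc1b (0.41, against -0.17, differences in signal with no fish well above background) and klf12a (0.11). Leaving out 1 fish moved foxc1b between -0.38 and 0.12, klf2a between -0.0503 and 0.202 and klf2b between -0.0505 and 0.191. The replicate block called 6 genes, adding foxl1 (adjusted p = 0.0304) and hnf1ba (0.0462); fish with the same number had correlations of 0.03 to 0.41, and 3 exercised and 2 non-exercised fish of 8 each correlated best with their own number, so the numbers were not taken as pairs. The cause of these changes was not tested.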
